A study of Mus musculus with 4 samples.

Results

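The cells described here were early erythroid progenitors that still carried little hemoglobin mRNA. They were chosen from the unfiltered barcodes of 4 single-cell RNA-seq libraries as barcodes with at least 1000 detected genes, at most 10% mitochondrial UMIs, at least 3 of the 4 markers Klf1, Car1, Ermap and Rhag detected, and less than 2% of UMIs from Hba-a1, Hba-a2, Hbb-bs and Hbb-bt together. A UMI is a molecular tag that counts 1 captured mRNA molecule. Of 16261 barcodes that passed the gene and mitochondrial limits, 4386 met the whole rule: 125 of 3497 in control bone marrow (CBM), 78 of 4340 in bone marrow of tumor-bearing mice (TBM), 1310 of 3236 in control spleen (CS) and 2873 of 5188 in spleen of tumor-bearing mice (TS).

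All 4 libraries came from female C57BL/6J mice of 8 to 16 weeks. TBM and TS came from mice that carried a subcutaneous transplant of PyMT-B6, a mammary tumor line derived from an MMTV-PyMT mouse, for 21 days. CBM and CS came from control mice without a tumor. The paper states PBS injection for the controls of its other tumor experiments but not separately for the sequenced mice. Before sequencing, lineage-positive cells were depleted and sorted fractions (CD45+ c-Kit+ cells with or without Sca-1, and CD45- fractions split by CD31 and CD51) were combined in equal ratios, so a share of barcodes is a share of this sorted pool and not of the organ, and the fraction a cell came from is not marked. Each group was 1 library, and how many mice went into it is not given in the sources used here, so there is no test between groups. Intervals printed below are 95% intervals for counting error only and do not include the spread between mice. Those of levels and ratios take the summed UMIs as independent, so they do not include the spread between cells either.

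Erythroid progenitors descend from multipotent cells through burst-forming and colony-forming stages. GATA2, MYB and KIT are characteristic of the earlier stages, and GATA1 together with KLF1 then switches on the genes for heme synthesis, the membrane skeleton and finally globin. The adult mouse makes most red cells in the marrow, and the spleen keeps a reserve of erythropoiesis that grows under stress.

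The promoters of 3 of the 4 genes that chose the cells are shown because each holds a binding motif of the GATA factors named above. Bases are lower case, read 5′ to 3′ on the gene's strand from 250 bases before the RefSeq start to the edge of the annotated gene (GRCm38.p6), so that the last base shown lies 55 bases before the RefSeq start for Klf1, 17 for Ermap and 24 for Rhag, and the match to AGATAA or TGATAA on either strand is in capitals.
Klf1, chr8:84901732-84901927, plus strand: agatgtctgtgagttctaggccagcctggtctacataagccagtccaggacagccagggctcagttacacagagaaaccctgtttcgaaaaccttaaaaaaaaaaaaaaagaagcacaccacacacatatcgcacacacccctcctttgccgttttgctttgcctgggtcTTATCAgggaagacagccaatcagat
Ermap, chr4:119190012-119190245, minus strand: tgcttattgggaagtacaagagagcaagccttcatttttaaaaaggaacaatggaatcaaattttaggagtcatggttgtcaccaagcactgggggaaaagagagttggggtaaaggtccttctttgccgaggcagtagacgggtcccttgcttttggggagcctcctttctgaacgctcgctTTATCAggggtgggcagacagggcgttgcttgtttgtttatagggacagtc
Rhag, chr17:40810899-40811125, plus strand: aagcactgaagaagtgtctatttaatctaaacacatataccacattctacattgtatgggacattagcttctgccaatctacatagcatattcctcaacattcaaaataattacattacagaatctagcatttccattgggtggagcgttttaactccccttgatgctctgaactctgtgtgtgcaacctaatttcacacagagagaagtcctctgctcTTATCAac
Car1 was not matched in the promoter table. A window that ran from 250 bases before the RefSeq start held such a match in 3 of 3 rule markers, in 7 of 18 matched genes (38.9%) among the 25 genes that most set the progenitors apart from marker-negative barcodes, and in 5092 of 27025 genes (18.8%) overall. A match is a description of the letters and not evidence of a bound site.

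The progenitors of all 4 libraries also carried erythroid genes outside the rule. The 4 markers and 4 hemoglobin genes chose the cells, so their levels are a description. Car1, carbonic anhydrase 1, reached 1600 CPM (counts scaled to a common total per library) in CBM and 2560 in TBM, and 2882 in CS against 3085 in TS. Barcodes with at most 100 UMIs, which hold free RNA, had 89.8, 79.95, 1940 and 1960 CPM of it. The progenitors thus stood less far above free RNA in the spleen than in the marrow for this marker. Klf1, the erythroid Krüppel-like factor, was at 188, 172, 154 and 127 CPM in the same order. Ermap, an erythroblast membrane protein, lay between 239 and 332 CPM, and Rhag, the Rh-associated glycoprotein, was at 91.2 CPM in CBM and 199 in TBM, and 48.6 in CS against 106 in TS. Hba-a1, alpha globin, was at 527, 461, 31.7 and 33.6 CPM, so the marrow progenitors held more of it although all were under the limit. Among genes outside the rule, Gata1 was at 82.5 to 112 CPM in the progenitors against 10.3 to 14.4 CPM in barcodes with none of the 4 markers, and the erythropoietin receptor Epor was at 60.3 to 73.2 against 2.03 to 5.02 CPM. Add2 (a membrane skeleton adducin), Slc38a5 (an amino acid transporter) and Sphk1 (sphingosine kinase 1) were among the genes with the largest such ratio in every library, and Rhd, Kel and Ank1, all of the red cell membrane, were in the same list of 25.

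The marrow cells stood apart in what else they carried. After each cell was thinned to 3000 UMIs, 50 of 125 CBM progenitors (40.0%) and 38 of 78 TBM progenitors (48.7%) held UMIs of at least 2 marker genes of 1 other lineage, against 59 of 1305 in CS (4.52%) and 156 of 2867 in TS (5.44%). The granulocyte-monocyte list accounted for 46 of the 50 and 34 of the 38. Of its 14 genes, 12 to 14 had a UMI in each library (Ltf was at 0 in CBM, TBM and CS), and the sum was at 831 CPM in CBM and 911 in TBM, and 136 in CS against 284 in TS progenitors, against 13436, 19366, 3032 and 3402 CPM in barcodes with at most 100 UMIs, which hold free RNA. Mpo, myeloperoxidase, was at 179, 208, 30.0 and 55.0 CPM in the progenitors and at 3071, 2872, 549 and 545 CPM in the free RNA. Doublets, free RNA and low expression within the progenitors cannot be told apart here, and their part in the marrow values was not tested. The 12 macrophage markers summed to 42.7 to 62.0 CPM. Only Slc40a1 among them, which erythroid cells also use, had a mean of at least 20 CPM. Leaving out Slc40a1 and Hmox1, macrophage markers were found as a pair in 0 thinned progenitors of any library.

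Depth differed as well. The median progenitor had 18047 UMIs in CBM and 24084 in TBM, and 49476 in CS against 34611 in TS, with 4285, 4854.5, 6339.5 and 5427 genes detected. The libraries summed to 101811035, 135207987, 145301019 and 176094297 UMIs in that order. No progenitor barcode was shared between libraries.

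Early erythroid progenitors made up 3.57% of CBM barcodes (interval 2.98 to 4.24%), 1.80% of TBM (1.42 to 2.24%), and in the spleen 40.5% of CS (38.8 to 42.2%) and 55.4% of TS (54.0 to 56.7%). The share was thus higher in both spleen libraries than in both marrow libraries, higher in TS than in CS and lower in TBM than in CBM. Free RNA of the spleen libraries was rich in the rule marker Car1, at 1940 CPM in CS and 1960 in TS. In CBM and TBM it held 89.8 and 79.95 CPM. The part of this free RNA in the shares was not tested. When the marker rule was applied after thinning to 3000 UMIs the shares were 0.720, 0.696, 8.73 and 17.2%, so that CBM and TBM were nearly at the same value. That setting kept 24, 28, 275 and 874 progenitors. Barcodes with at least 3 markers but 2% or more hemoglobin numbered 92 in CBM and 125 in TBM, and 63 in CS against 51 in TS. Few cells lay near that limit: 6, 7, 1 and 10 cells had 1 to 2% hemoglobin, and 2, 7, 1 and 6 had 2 to 3%. Hemoglobin was under 0.1% of UMIs in 110 of 125, 62 of 78, 1288 of 1310 and 2832 of 2873 progenitors, while free RNA held 0.960, 1.15, 0.767 and 0.280%. A further 182, 82, 456 and 463 barcodes had 2 markers and were not counted.

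**Figure D1:**
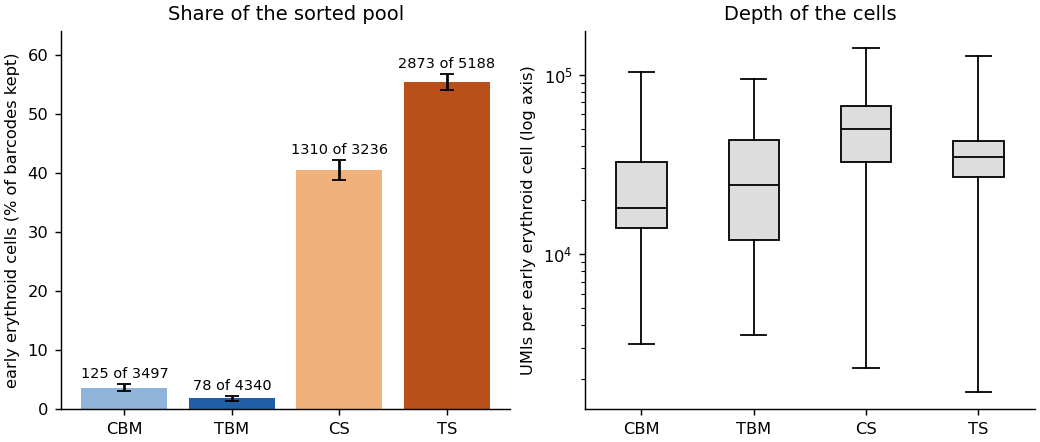
Left, share of early erythroid progenitors among the barcodes kept (%), 1 library per group, with exact 95% binomial intervals. Right, UMIs per progenitor (log axis), where boxes give the quartiles and median and whiskers the lowest and highest cell. The share was 40.5% in CS and 55.4% in TS against 3.57% in CBM and 1.80% in TBM, and the median depth ran from 18047 to 49476 UMIs.

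The next question was how these progenitors differed in mice with a tumor at a distance, asked separately in spleen (TS over CS) and in marrow (TBM over CBM), which share no library. Whether the spleen and marrow libraries came from the same mice is not given in the sources used here. The 2 comparisons may therefore share animals or handling, and a match between organs is not independent support. In both organs the progenitors of tumor-bearing mice carried lower levels of interferon-stimulated and MHC class I genes, of Apoe and of the early factor Gata2, and higher levels of Trnp1 and Gsta4. UMIs were summed over the progenitors of a library, and 5652 genes outside the rule had a mean of at least 20 CPM over the 4 libraries. Ratios are of CPM, so a ratio below 1 (a log2 ratio below 0) means lower in the first-named library. Of these genes, 9 (0.159%) were at least 2-fold higher and 43 (0.761%) at least 2-fold lower in TS than in CS. In the marrow 16 (0.283%) were at least 2-fold higher and 77 (1.36%) at least 2-fold lower in TBM than in CBM. That imbalance in the marrow, with 17.2% of the genes past 2-fold higher, depended on how cells were chosen and weighted: the share was 48.4% with at least 2 markers (31 higher and 33 lower) and 38.8% at equal weight per cell. The lower genes of the 2 organs had 25 in common, 58.1% of the 43 and 32.5% of the 77, and 39 of the 43 genes lower in TS were also below 1 in the marrow ratio. The higher genes had 5 in common, 55.6% of the 9 and 31.2% of the 16: Trnp1, Gsta4, Igkc, Ctsg and Ms4a3. In TBM, with 78 progenitors, 5 cells held 80.3% of Ms4a3, 66.2% of Ctsg, 49.5% of Trnp1 and 48.4% of Gsta4 UMIs. In both marrow libraries 5 cells held 100% of the Igkc UMIs, and in CBM 54.55% of those of Gsta4. In TS, with 2873 progenitors, 5 cells held 92.7% of Igkc, 21.1% of Ms4a3, 19.2% of Ctsg, 1.11% of Trnp1 and 0.943% of Gsta4 UMIs. Without the 5% of cells with the most UMIs the TBM over CBM log2 ratio of Ctsg was 0.24 in place of 1.38. A gene that passed the level filter only through the libraries in which it was high had to differ. The mean of the 2 lower libraries was under 20 CPM for 4 of these 5 (Trnp1, Gsta4, Igkc and Ms4a3) and for 12 of the 25 lower genes, Irf1 among them, so these counts are a description. No gene was at least 2-fold higher in one organ and at least 2-fold lower in the other.

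**Figure D2:**
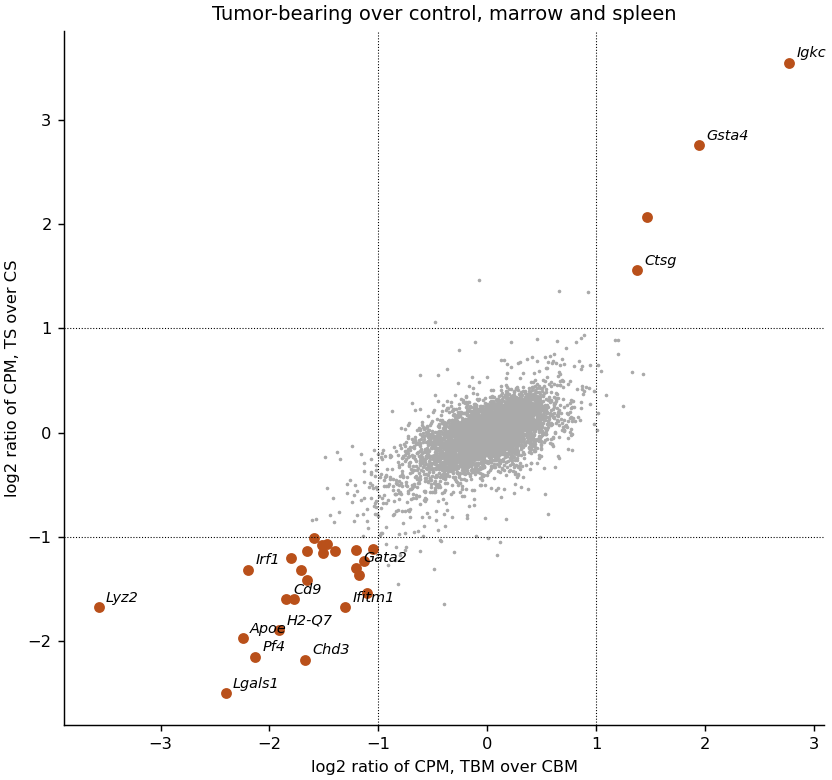
Log2 ratio of tumor-bearing over control progenitors in spleen (TS over CS, vertical axis) against marrow (TBM over CBM, horizontal axis), 1 point per tested gene, with dotted lines at 2-fold and the genes past 2-fold in both organs drawn larger. Trnp1 is left out because it had 0 UMIs in CBM and 1 in CS. Of the 43 genes at least 2-fold lower in the spleen, 25 were also at least 2-fold lower in the marrow, among them Apoe, H2-Q7, Ifitm1 and Gata2.

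MHC class I genes, whose products present peptides to CD8 T cells, were lower throughout. All 13 tested members were lower in TS than in CS (median log2 ratio -0.75, 3 of them at least 2-fold) and all 13 were lower in TBM than in CBM (median -0.72, 4 at least 2-fold). The median of all tested genes was 0.00067 in the spleen and 0.024 in the marrow, and 0.761 and 1.36% of them were at least 2-fold lower. H2-Q7, a nonclassical class Ib gene (chr17:35439155-35443773, plus strand), was at 268 CPM in CBM (interval 250 to 286) and 71.3 in TBM (60.9 to 83.0), and 296 in CS (292.0 to 300.2) against 79.4 in TS (77.6 to 81.1). Both control libraries were high and both tumor libraries low, with log2 ratios of -1.90 in the spleen and -1.91 in the marrow and no overlap of the intervals. H2-Q4, H2-Q6 and H2-Q7 are near-identical copies, so how reads were split between them is uncertain. They were the 3 class I genes past 2-fold in the spleen and 3 of the 4 in the marrow, so those counts need not stand for separate genes. B2m, the light chain that all class I molecules share (chr2:122147686-122153083, plus strand), was at 1140, 695, 1157 and 661 CPM in CBM, TBM, CS and TS. H2-K1, a classical heavy chain, was likewise lower in both tumor libraries, at 798, 485, 827 and 491 CPM. For these 2 abundant genes the difference stayed under 2-fold, with log2 ratios of -0.81 and -0.75 in the spleen and -0.71 and -0.72 in the marrow.

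The interferon-stimulated list shares the immunoproteasome subunits Psmb8 and Psmb9 with the class I list. Of 26 listed genes 10 passed the level filter, 2 of them, Irf1 among these, with a mean under 20 CPM in the tumor libraries, so the counts are a description. All 10 were lower in both organs with a tumor, with a median log2 ratio of -0.98 in the spleen (3 at least 2-fold) and -0.92 in the marrow (4 at least 2-fold). Over all tested genes the shares at least 2-fold lower were 0.761 and 1.36%. Irf1, a transcription factor induced by interferon gamma (chr11:53770014-53778374, plus strand), was at 35.0 CPM in CBM (28.9 to 42.1) and 7.64 in TBM (4.53 to 12.1), and 47.9 in CS (46.2 to 49.5) against 19.2 in TS (18.4 to 20.1), where the TBM value rested on 18 UMIs. Psmb9 stood at 137, 69.6, 169 and 86.4 CPM. In both genes the control libraries were above both tumor libraries. Ifitm1, an interferon-induced membrane protein (chr7:140967221-140969825, plus strand), was at 583 CPM in CBM and 236 in TBM, and 137 in CS against 42.9 in TS, so it was lower with a tumor (log2 ratios -1.31 in marrow and -1.68 in spleen) and lower again in spleen. With all 4 markers required neither tumor ratio was 2-fold (-0.72 in marrow and -0.86 in spleen), and in the marrow it was -0.56 with at least 2 markers and -0.84 at equal weight per cell. In barcodes without a marker Ifitm1 ran the other way, at 455 and 794 CPM in CBM and TBM and 605 and 1102 CPM in CS and TS.

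Other barcodes of the same libraries give a comparison for these differences. Summed over 14 genes, MHC class I was at 3794, 2268, 3923 and 2308 CPM in the progenitors of CBM, TBM, CS and TS. In barcodes without a marker it was at 4272, 3211, 6167 and 3859 CPM, so both sums were lower with a tumor. Barcodes without a marker are a mixture of cells, however, and its make-up was not held equal between libraries. Their MHC class II genes summed to 11933 CPM in CS against 595 in TS, and to 268 against 156 CPM in the marrow. Their B lineage markers summed to 2324 against 715 CPM in the spleen and 676 against 385 CPM in the marrow. Whether class I was lower within any kind of these cells was not tested. The 26 interferon-stimulated genes summed to 1586, 785, 1257 and 710 CPM in the progenitors. In barcodes without a marker they summed to 1991, 2074, 2597 and 2737 CPM, where the tumor libraries were the higher ones. Ifitm1 alone, at the values given above, rose by more than this sum in each organ. The other genes of the list together were therefore lower with a tumor in these barcodes too. Whether the 2 kinds of barcode differ in this list was not tested. Free RNA moved with the progenitor values in part: B2m was at 1175, 841, 1477 and 739 CPM there. After 10% of each profile was subtracted as free RNA, the ratios of H2-Q7 were -1.92 in the spleen and -1.95 in the marrow and those of Irf1 were -1.39 and -2.66.

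The B2m promoter is shown because this gene was lower in both organs and because its window holds the interferon response motif, GAAA and GAAA with 2 bases of any kind between them, in capitals.
B2m, chr2:122147437-122147685, plus strand: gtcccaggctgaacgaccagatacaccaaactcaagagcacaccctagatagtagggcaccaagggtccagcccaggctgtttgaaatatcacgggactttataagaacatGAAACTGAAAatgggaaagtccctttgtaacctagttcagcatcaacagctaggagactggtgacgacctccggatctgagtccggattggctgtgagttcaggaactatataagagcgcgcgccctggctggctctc
On either strand this motif occurred in 2 of 12 matched class I genes (B2m and H2-T23, 16.7%), in 2 of 9 matched interferon-stimulated genes (Bst2 and Gbp7, 22.2%) and in 3.46% of all genes. The absence of these letters from the other windows says nothing about the factors involved.

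Of the genes of the early progenitor state, Gata2 and Myb were lower with a tumor in both organs. Of 9 tested factors and receptors, 7 were below 1 in TS over CS (2 at least 2-fold) and 8 in TBM over CBM (1 at least 2-fold), with medians of -0.43 and -0.51. Among all tested genes 0.761 and 1.36% were at least 2-fold lower. For 2 of these 9 the mean of the tumor libraries was under 20 CPM, so these had to be lower on average over the organs. Gata2 (chr6:88193891-88207032, plus strand) was at 217 CPM in CBM (201 to 233) and 93.8 in TBM (81.9 to 107), and 58.9 in CS (57.1 to 60.8) against 23.9 in TS (23 to 24.9). The order was CBM, TBM, CS and TS with no overlap of intervals, and the log2 ratios with a tumor were -1.30 in spleen and -1.21 in marrow. Myb, which keeps progenitors dividing, was at 664, 445, 779 and 497 CPM, lower in both tumor libraries by less than 2-fold. Kit, the stem cell factor receptor, did not share this pattern, with 201, 167, 162 and 171 CPM and log2 ratios of 0.08 in the spleen and -0.27 in the marrow. Of 14 tested erythroid transcription factors, 12 were below 1 in the spleen and 11 in the marrow, with small medians of -0.20 and -0.17. The calls for Gata2 depended on the settings. With all 4 markers required its TS over CS ratio was no longer 2-fold (-0.77), and at equal weight per cell its TBM over CBM ratio was not (-0.64). Its TS over TBM ratio was -0.52 with all 4 markers and -0.43 with the rule after thinning, in place of -1.97. These 2 settings kept 48 and 28 TBM progenitors. Free RNA held 117, 109, 66.7 and 42.7 CPM of Gata2, and with 10% of it subtracted the ratios with a tumor were -1.41 in spleen and -1.31 in marrow.

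Apoe, the apolipoprotein E gene (chr7:19696109-19699188, minus strand), was more than 2-fold lower with a tumor in both organs. It was at 1118 CPM in CBM (1081 to 1155) and 236 in TBM (216 to 256), and 657 in CS (650.5 to 663) against 167 in TS (164 to 169), with log2 ratios of -1.98 and -2.25. Free RNA held 395, 220, 718 and 236 CPM of Apoe, and with 10% of it subtracted the ratios were -2.03 and -2.34. In cells thinned to 3000 UMIs, 80.0% of CBM and 46.2% of TBM, and 76.2% of CS as well as 36.1% of TS progenitors held an Apoe UMI. Lgals1, the lectin galectin-1 (chr15:78926725-78930465, plus strand), was at 260, 49.2, 44.1 and 7.78 CPM, lower with a tumor in both organs (-2.50 and -2.40), although 5 cells held 62.9% of its TBM UMIs. Clec2d, a lectin-like ligand of lymphocyte receptors, was at 93.3, 26.7, 41.4 and 18.0 CPM. Of 20 cholesterol synthesis genes 5 passed the level filter, 1 of them with a mean under 20 CPM in the tumor libraries, and the 5 were below 1 in both organs (medians -0.45 and -0.71), none of them by 2-fold.

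Several genes were lower with a tumor in the spleen without a 2-fold difference in the marrow. Nkg7, a granule protein best known from NK and T cells, was at 104, 59.0, 89.1 and 32.5 CPM (-1.45 in spleen, -0.82 in marrow). Of the list of T, NK and innate lymphoid markers it was the only tested gene. The summed list was at 106, 61.1, 94.3 and 38.7 CPM, with Cd3e and Cd3g at 0 in both marrow libraries, and its part in the result was not tested. Hist1h2ap, a replication-dependent histone, was at 116, 88.3, 105 and 33.6 CPM, low in TS alone. Nr4a2, an orphan nuclear receptor induced early after stimulation (chr2:57106830-57124003, minus strand), was at 73.2 in CBM and 78.1 in TBM, and 258 in CS against 114 in TS, so that CS was the high library (log2 ratio -1.18 in spleen and 0.09 in marrow). The 18 tested genes of the immediate-early list, which also holds the chaperone genes Hsp90aa1, Dnajb1 and Hspa8, had medians of -0.35 in the spleen and -0.36 in the marrow. For 1 of the 18 the mean of the tumor libraries was under 20 CPM.

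**Figure D3:**
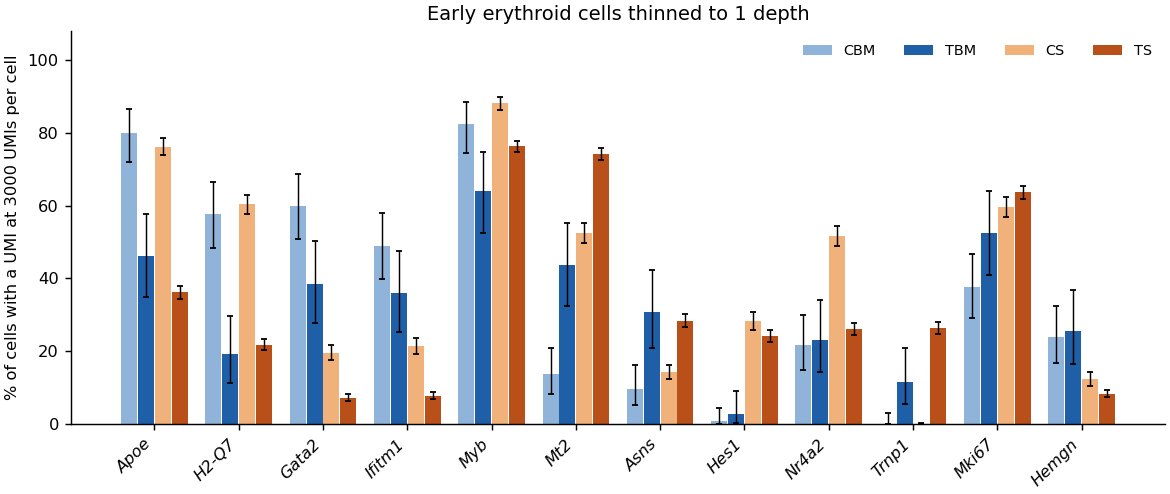
Percent of early erythroid progenitors with at least 1 UMI of each gene after every cell was thinned to 3000 UMIs, by library, with exact 95% binomial intervals. H2-Q7 was found in 57.6% of CBM and 19.2% of TBM, and 60.4% of CS as well as 21.7% of TS progenitors, while Mt2 ran from 13.6% in CBM to 74.3% in TS.

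Trnp1, which encodes a nuclear protein known from the developing cortex (chr4:133491100-133498550, minus strand), had the highest TS over CS ratio of the tested genes. It was named after its values were seen. It had 0 UMIs in CBM (0 of 125 cells with a UMI, an exact 95% interval of up to 2.91%, or 2.40% at the floor of 3 counts) and 107 in TBM, and 1 in CS against 9616 in TS. As levels these were 45.4 CPM in TBM (37.2 to 54.9), 0.0150 in CS and 95.3 in TS (93.4 to 97.2). With CBM set to the floor of 3 UMIs, Trnp1 was 48.8-fold higher in TBM than CBM. This is a value at that floor and not a lower limit, since the exact interval of CBM reached 1.14 CPM. Its log2 ratio of TS over CS was 12.6 with a counting interval of 10.2 to 17.9, from 1 UMI in CS. Over the alternatives the TS over CS log2 ratio lay between 8.40, without cells that held other-lineage markers, and 13.0, and the TBM over CBM value between 2.99, with the rule after thinning, and 6.42. Before thinning, 30 of 78 TBM progenitors (38.5%) and 2285 of 2873 TS progenitors (79.5%) held a UMI, and 5 cells held 49.5% of the TBM UMIs. Free RNA of the TS library also held Trnp1, at 60.2 CPM, against 1.32 in TBM, and barcodes of TS without a marker were at 1.74 CPM.
The Trnp1 promoter is shown because of this difference, with its GATA match in capitals.
Trnp1, chr4:133498551-133498800, minus strand: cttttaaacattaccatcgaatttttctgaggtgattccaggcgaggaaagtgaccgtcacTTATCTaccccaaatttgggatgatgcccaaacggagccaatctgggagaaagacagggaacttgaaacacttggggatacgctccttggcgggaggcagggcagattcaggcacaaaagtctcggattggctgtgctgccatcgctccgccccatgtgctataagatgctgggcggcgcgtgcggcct

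Gsta4, a glutathione transferase that clears lipid peroxidation products (chr9:78182774-78209349, plus strand), was at 3.41 CPM in CBM (1.70 to 6.10) and 13.2 in TBM (8.94 to 18.7), and 14.4 in CS (13.5 to 15.4) against 97.7 in TS (95.8 to 99.7). TS was the highest library and CBM the lowest, with TBM and CS overlapping. The ratio was 6.77 in the spleen and 3.86 in the marrow, the latter from 11 and 31 UMIs. Free RNA was at 3.01, 1.32, 9.87 and 70.1 CPM.

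Asns, asparagine synthetase and a target of the amino acid stress factor ATF4 (chr6:7675169-7693254, minus strand), was at 73.5 CPM in CBM and 166 in TBM, and 72.0 in CS against 133 in TS. The intervals of the controls overlapped and the tumor libraries were higher, by a log2 ratio of 1.17 in the marrow and 0.89 in the spleen. Over the whole ATF4 list, Asns included, 9 of 12 tested genes were above 1 in each organ, with medians of 0.09 and 0.21. Mt2, a metallothionein that binds zinc and copper (chr8:94172664-94173568, plus strand, overlapped on the other strand by Gm45774), was at 154, 385, 370 and 553 CPM, and Mt1 was at 332, 632, 744 and 1004 CPM. Both were lowest in CBM and highest in TS. Free RNA of the spleen libraries was rich in them, with Mt2 at 307 CPM in CS and 447 in TS against 10.3 and 16.2 in CBM and TBM. Phlda2, an imprinted growth regulator, was at 11.5, 21.2, 38.8 and 74.2 CPM, and Cela1, an elastase family gene, at 61.4, 112, 48.1 and 90.0 CPM, both higher with a tumor by just under 2-fold in each organ. Nuclear genes of the respiratory chain were above 1 in 18 of 18 cases in each organ, with small medians of 0.18 and 0.24. They were also above 1 in 17 of 18 cases in CS over CBM (median 0.19) and 16 of 18 in TS over TBM (median 0.16). The pattern was thus not limited to the tumor comparisons.

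Several of the highest ratios belonged to genes of other lineages. Prtn3 and Ctsg, neutrophil granule proteases, were at 37.4 and 17.7 CPM in CS and at 96.2 and 52.2 in TS, against 786 and 507 CPM in free RNA of CS and 1076 and 705 in that of TS. Without progenitors that held at least 2 markers of 1 other lineage, their TS over CS log2 ratios were 0.26 and 0.67 in place of 1.36 and 1.56. Both genes are themselves among the markers that removed cells, and 218 of 1310 CS and 891 of 2873 TS progenitors were left, so these values are a description. When those markers were looked for after thinning, the ratios were 0.50 and 1.16. Igkc, an antibody light chain, was at 9.72 CPM in CS and 114 in TS, and 5 cells held 92.7% of the TS UMIs. In CBM, 5 cells held 81.0% of the UMIs of Lyz2 (lysozyme) and 94.8% of those of Pf4 (platelet factor 4), which were lower in TBM by log2 ratios of -3.57 and -2.13.

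**Figure D4:**
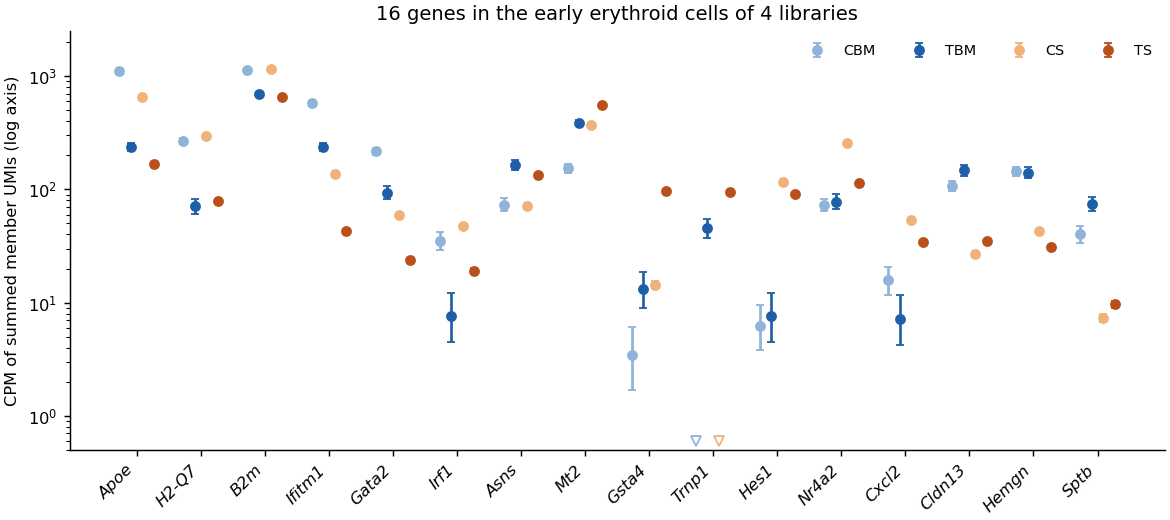
CPM (log axis) of named genes in the summed early erythroid progenitors of CBM, TBM, CS and TS, 1 library per group, with exact 95% Poisson intervals. Open triangles at the lower edge mark values of 3 UMIs or fewer. Apoe and H2-Q7 lay lower in both tumor libraries than in both controls, Gsta4 was highest in TS at 97.7 CPM, and Hes1 was above 90 CPM in both spleen libraries and under 8 CPM in both marrow libraries.

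The second question was how progenitors in the spleen differed from those in the marrow, without a tumor (CS over CBM) and with one (TS over TBM), again without a shared library. Spleen progenitors carried more Sept1, Hes1 and Nfkbia, and less of Hemgn and of the mRNAs for the red cell membrane. In CS over CBM 28 genes (0.495%) were at least 2-fold higher and 92 (1.63%) at least 2-fold lower. In TS over TBM 26 (0.46%) were higher and 111 (1.96%) lower. The higher genes had 14 in common, 50% of the 28 and 53.8% of the 26, and the lower genes had 67 in common, 72.8% of the 92 and 60.4% of the 111. The mean of the 2 lower libraries was under 20 CPM for 8 of the 14, Hes1 and Cxcl2 among them, and for 41 of the 67, Sptb, Meis1 and Csrp3 among them, so these genes too had to differ once they passed the filter. With median-of-ratios scaling the share of higher genes among those past 2-fold in TS over TBM was 31.6% in place of 19.0%, with the marker rule after thinning 45.01% (158 higher and 193 lower), and without cells of other-lineage markers after thinning 36.2%. The main ratios of this kind rest on only 125 and 78 marrow cells with the other-lineage UMIs given above. The rule after thinning kept 24 and 28 of them. Leaving out cells of other-lineage markers after thinning kept 80 and 43.

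Hes1, a repressor downstream of Notch signaling (chr16:30064384-30067796, plus strand), was far higher in the spleen. It was at 6.20 CPM in CBM (3.79 to 9.58) and 7.64 in TBM (4.53 to 12.1), and 117 in CS (115 to 120) against 92.0 in TS (90.1 to 93.8), or 18.9-fold higher in CS than CBM and 12.0-fold in TS than TBM. Over the alternatives these log2 ratios of 4.24 and 3.59 ran from 3.79 to 6.24 and from 2.04 to 6.17. The 2 marrow libraries overlapped, and the 2 spleen libraries were both far above them. The marrow values rested on 20 and 18 UMIs. After thinning, 1 of 125 cells of CBM and 2.56% of TBM, and 28.2% of CS as well as 24.1% of TS progenitors held a UMI. Barcodes without a marker were likewise lower in the marrow, at 3.97 CPM in CBM and 3.89 in TBM against 50.02 in CS and 71.8 in TS, as was free RNA at 3.87, 5.29, 90.6 and 72.1 CPM, so the difference between organs was not limited to the progenitors.

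Of 24 NF-kB and inflammatory genes 6 passed the level filter, Cxcl2 only through the spleen libraries, so the following counts are a description. Of the 6, 5 were above 1 in CS over CBM (median 0.36) and 5 of 6 in TS over TBM (median 0.48), against medians near 0 in both tumor comparisons. Nfkbia, the NF-kB inhibitor that NF-kB itself induces, was at 167 CPM in CBM (154 to 182) and 195 in TBM (177 to 213), and 306 in CS (302 to 310.2) against 351 in TS (348 to 355). Tnfaip3, which encodes the inhibitor A20, was at 36.9, 38.2, 57.7 and 76.4 CPM. For these 2 genes the spleen libraries were above the marrow libraries and TS was above CS. The pattern was not limited to the progenitors: Nfkbia was at 148, 148, 444 and 352 CPM in barcodes without a marker and at 99.3, 114, 233 and 270.3 CPM in free RNA. The 24 listed genes summed to 463, 498, 679 and 685 CPM in the progenitors, below the free RNA of the same library (883, 873, 1024 and 789 CPM) and below barcodes without a marker (1329, 1116, 2633 and 1664 CPM). The part of free RNA in these values was not tested. Cxcl2, a neutrophil chemokine, was at 15.8, 7.22, 53.4 and 34.5 CPM, with CS and not TS as the highest library, and in the marrow it rested on 51 and 17 UMIs of which 5 cells held 88.2 and 94.1%. Free RNA held 13.3, 26.1, 66.3 and 85.1 CPM of Cxcl2, more than the progenitors in every library but CBM. After thinning, Tnf was found in 2 of 125 progenitors in CBM and in 0 of 78 in TBM, where the exact interval for cells with a UMI reaches 4.62%. In the spleen it was found in 0.383% in CS and 0.488% in TS. Barcodes without a marker held it in 1.65, 5.01, 7.20 and 8.05%, and the shares in the progenitors are not read as expression.

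Other genes higher in the spleen had varied roles. Sept1, a septin that is overlapped on the other strand by Zfp553, was at 33.5, 38.2, 95.2 and 118 CPM. Gatm, an enzyme of creatine synthesis, was at 119, 141, 299 and 254 CPM. Ass1, argininosuccinate synthase, was higher in spleen and lower with a tumor, at 68.8 CPM in CBM and 24.2 in TBM, and 143 in CS against 64.3 in TS. It was named after its values were seen. Each of the 3 was higher in CS than in CBM and higher in TS than in TBM. Ribosome biogenesis and MYC target genes were above 1 in 19 of 20 cases in each organ comparison, with medians of 0.30 and 0.28 and no gene past 2-fold.

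Later erythroid genes were lower in the spleen. Of 26 genes of the erythroid membrane and cytoskeleton 20 passed the level filter, and all 20 were below 1 in CS over CBM (median -0.48, 4 at least 2-fold) and all 20 in TS over TBM (median -0.70, 5 at least 2-fold). Over all tested genes 1.63 and 1.96% were at least 2-fold lower. For 2 of the 20, Sptb among them, the mean of the spleen libraries was under 20 CPM, so those 2 had to be lower on average and these counts are a description. Hemgn, a nuclear factor of differentiating erythroid cells (chr4:46393989-46413506, minus strand), was at 145 CPM in CBM (132 to 159) and 141 in TBM (126 to 156), and 42.7 in CS (41.2 to 44.3) against 31.1 in TS (30.0 to 32.2), with log2 ratios of -1.76 and -2.18 between organs. Cldn13, a claudin that is on none of the lists, was at 107.9, 148, 26.7 and 35.0 CPM. Sptb, erythroid beta spectrin (chr12:76580488-76710547, minus strand), was at 40.3 CPM in CBM (33.7 to 47.9) and 74.7 in TBM (64.1 to 86.6), and 7.32 in CS (6.68 to 8.00) against 9.63 in TS (9.04 to 10.3). In each gene both marrow libraries were above both spleen libraries. Of 9 genes of heme synthesis 7 passed the level filter, and 6 of the 7 were below 1 in CS over CBM (median -0.47) and 7 of 7 in TS over TBM (median -0.89). For 2 of the 7 the mean of the spleen libraries was under 20 CPM, so these counts too are a description. Fech, ferrochelatase, which inserts the iron, was at 70.1, 124, 50.5 and 67.5 CPM. Tfrc, the transferrin receptor, was at 215, 369, 187 and 232 CPM.

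These differences depended on the cells closest to the hemoglobin limit and on the marker rule. With the limit lowered to 0.5% the log2 ratios of Sptb were -1.84 in CS over CBM and -2.57 in TS over TBM. Those of Hemgn were -1.095 and -1.72 in place of -1.76 and -2.18. Fech was at -0.11 and -0.58, and the heme median at -0.11 and -0.68. For Cldn13 the CS over CBM value was -1.32 in place of -2.01. Sptb and Hemgn stayed past 2-fold, and the heme median was closer to 0 in both. With at least 2 of the 4 markers the heme median was -0.019 in CS over CBM and -0.51 in TS over TBM. The progenitors with 1 to 2% hemoglobin carried 1064, 1971, 1942 and 1665 CPM of Car1 in CBM, TBM, CS and TS, and the barcodes just outside, with 2 to 3%, carried 892, 2003, 827 and 2193 CPM.

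Some early genes were lower in the spleen too. Among the 9 tested early factors and receptors, 7 were below 1 in CS over CBM (median -0.31). In TS over TBM 5 were below 1 and 4 above (median -0.22, but 0.52 with the marker rule after thinning). For 2 of the 9 the mean of the spleen libraries was under 20 CPM, so these counts are a description. Gata2 had log2 ratios of -1.88 in CS over CBM and -1.97 in TS over TBM, and after thinning 60.0% of CBM and 38.5% of TBM, and 19.5% of CS as well as 7.15% of TS progenitors held a UMI. Meis1, a stem cell homeobox factor, was at 37.2, 30.1, 11.5 and 5.21 CPM. Csrp3, a LIM domain protein, was at 114, 34.8, 9.55 and 3.83 CPM, the order of the libraries being that of Gata2. Myb and Kit did not differ by 2-fold between organs. MHC class I genes were close to 1 in both organ comparisons, with medians of 0.02 and 0.02, and so was the median of the interferon-stimulated genes at -0.02 and 0.09, although Ifitm1 was lower in both and Irf1 was higher in TS than in TBM (log2 ratio 1.33).

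**Figure D5:**
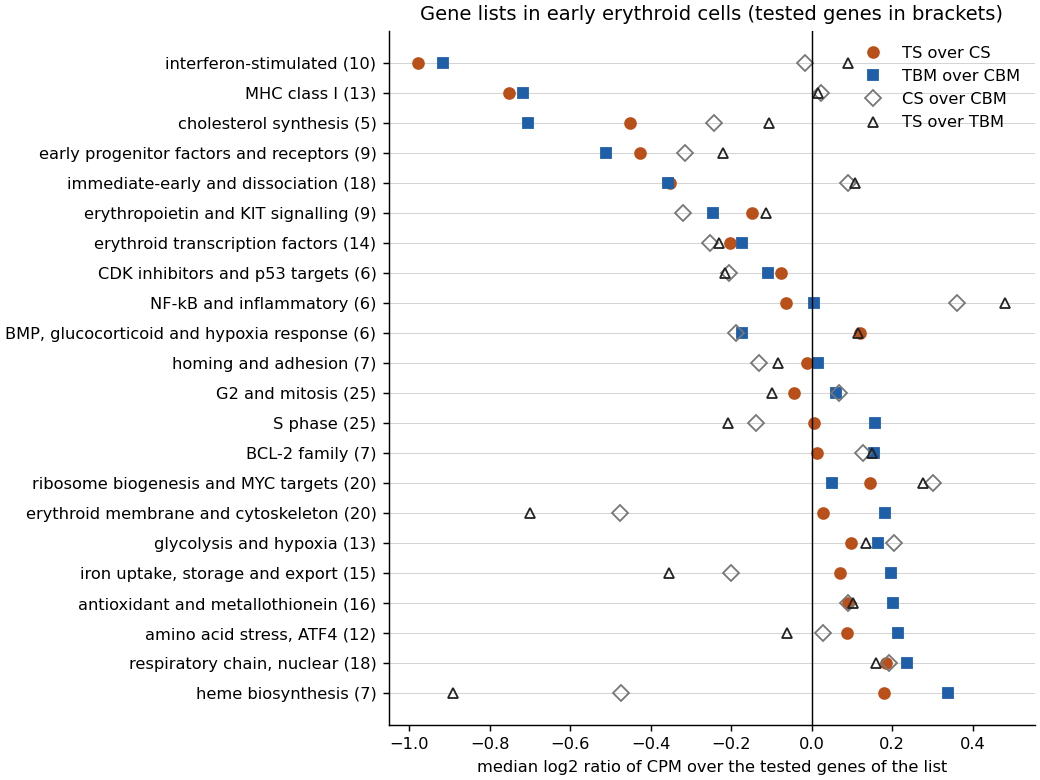
Median log2 ratio of each gene list in the 4 comparisons, TS over CS, TBM over CBM, CS over CBM and TS over TBM, over the tested genes of the list. MHC class I and interferon-stimulated genes lay between -0.98 and -0.72 in both tumor comparisons and near 0 between organs, whereas heme synthesis and membrane genes lay below 0 between organs.

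Cell cycle genes were found in every library. Mki67, a marker of cycling cells, was at 519 CPM in CBM and 629 in TBM, and 560 in CS against 503 in TS. At equal depth 37.6% of CBM and 52.6% of TBM progenitors held a UMI of it, and 59.6% in CS against 63.8% in TS (55.2, 70.5, 87.3 and 92.6% before thinning), so the share put TS highest where the pooled level put it lowest and no order is read from either. All 25 S phase genes and all 25 genes of G2 and mitosis passed the level filter. Their medians lay between -0.21 and 0.16 over the 4 comparisons, and 1 of these 50 genes was past 2-fold in any of them. After thinning, the median progenitor held 5, 7, 7 and 8 UMIs of the S phase list and 2, 6, 6 and 7 of the G2 and mitosis list in CBM, TBM, CS and TS. CBM was lowest on both, and 16.8% of its progenitors held no UMI of the second list against 3.66% in TS.

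Hemoglobin-rich barcodes with the same markers differed from the progenitors by the hemoglobin limit of the rule, so their other differences are a description. In all 4 libraries heme synthesis was higher in the hemoglobin-rich barcodes for 7 of 7 tested genes, membrane genes for 18 of 20, S phase genes for 23 of 25 and G2 and mitosis genes for 24 of 25. In all 4 libraries the early progenitor genes were lower for 9 of 9, MHC class I for 10 of 13, interferon-stimulated genes for 7 of 10 and ribosome biogenesis for 19 of 20. Over all 5652 tested genes 878 were higher and 3804 lower in 4 of 4. The median log2 ratio of all genes was -0.90, -0.72, -0.69 and -0.51 in CBM, TBM, CS and TS. The class I and interferon-stimulated counts lie near that share and are not read as traits of these lists. Of the 25 genes lower with a tumor in both organs, 22 were lower in the hemoglobin-rich barcodes of all 4 libraries. Apoe was at 29.7, 12.5, 50.9 and 65.1 CPM there and H2-Q7 at 43.5, 10.3, 54.4 and 12.0 CPM. H2-Q7 thus kept its order by tumor status in the later barcodes, while Apoe in TS was not below CS. Of the 67 genes lower in spleen in both comparisons, 24 were lower and 28 higher in the hemoglobin-rich barcodes of all 4 libraries.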

How the data were processed

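Droplet 3′ single-cell RNA-seq of 4 libraries was used, 1 per group. The authors made the deposited unfiltered UMI counts with Cell Ranger 4.0 on mm10 (the submitters' processing notes), covering 32285 genes. Filters on genes, mitochondrial UMIs, markers and hemoglobin chose the progenitors as stated above. Doublets were not called; cells with 2 or more markers of 1 other lineage were counted and, as an alternative, left out. The counts of the progenitors were summed per library and divided by their total (CPM), and genes averaging 20 CPM or more were compared by ratio, with 2-fold as the limit of a call. Exact Poisson, binomial and conditional ratio intervals (95%) cover counting error only, and a count of 0 was set to a floor of 3 UMIs. Barcodes of 100 UMIs or fewer gave the free RNA profile. No test between groups was possible with 1 library each. Ratios and intervals were tested on simulated Poisson counts without spread between cells. Such counts meet the assumption of the intervals, so this does not show how well the intervals cover these data. Python 3.11.15, numpy 2.4.6, scipy 1.17.1, pandas 2.3.3 and matplotlib 3.10.9 were used.

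The progenitors, the 34 gene lists and the tests were chosen with earlier results of these data known. Genes named in the text were the rule's markers and hemoglobin genes, the genes of each list with the largest ratios among those tested, members of a list whose role was described, and, per comparison, the 6 highest and 6 lowest genes averaging 50 CPM or more in the pair and the same direction at equal weight per cell, leaving out mitochondrial, ribosomal protein, hemoglobin, immunoglobulin, T cell receptor, Xist and unnamed genes. Promoter sequences came from RefSeq and gene positions from the mm10 (GRCm38) annotation. Alternatives changed the marker, hemoglobin, gene and mitochondrial limits, the depth of the rule, the weight of each cell, free RNA, scaling, doublets and the low-value filter. Some genes are not reported here.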

Additional observations from a re-analysis of the deposited data

Results flagged for a closer look

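Trnp1 was also above the control level in some classes of barcodes outside the early erythroid progenitors. Barcodes with 1 or 2 of the 4 markers held 10.9 CPM in TBM (56 of 550 cells, 10.2%) and 17.4 CPM in TS (221 of 1631, 13.6%), against 0 in CBM and 0.238 CPM in CS. Barcodes without a marker held 1.27 CPM in TBM (65 of 3587) and 1.74 CPM in TS (15 of 633), against 0.0648 in CBM and 0 in CS. Hemoglobin-rich barcodes held 9.30 CPM in TS (3 of 51) against 0.697 in CS and 0 UMIs in both TBM (0 of 125) and CBM (0 of 92). Free RNA held 60.2 CPM in TS and 1.32 in TBM, against 0.430 in CBM and 0 in CS.

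A few genes moved in opposite directions in the 2 organs or under the 2 tumor states, each by at least 0.5 on the log2 scale. Whether these opposite directions differ beyond the spread between mice was not tested. Eno1, a glycolytic enolase, was at 37.8, 54.8, 59.0 and 39.3 CPM in CBM, TBM, CS and TS, so that its TS over CS log2 ratio less its TBM over CBM log2 ratio was -1.12. Dynlt1f, a dynein light chain gene of a family of near-identical copies, was at 20.5, 30.1, 37.7 and 22.0 CPM (-1.34). Aqp11, an intracellular aquaporin, was at 26.7, 17.4, 17.9 and 26.3 CPM (1.17, the same contrast of 4 libraries as its CS over CBM less TS over TBM ratio of -1.17). Taken as CS over CBM less TS over TBM, the difference was -1.54 for Rec8, a meiotic cohesin subunit at 22.3, 21.2, 11.4 and 31.4 CPM.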

How the results depend on the processing

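With at least 2 markers the share was 8.78, 3.69, 54.6 and 64.3% (CBM, TBM, CS and TS), with all 4 markers 1.23, 1.11, 24.5 and 46.2%, and with the marker rule after thinning 0.720, 0.696, 8.73 and 17.2%. A stricter minimum of genes per barcode gave 4.36% in CBM, 45.1% in CS and 57.8% in TS, at most 5% mitochondrial UMIs 52.9% in TS, and at least 1000 CPM of markers, added after seeing the data, 2.75% in CBM, 36.7% in CS and 53.5% in TS.

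Counts of genes past 2-fold moved by over 1.5 times as follows, and the cause was not tested. With at least 2 markers 71 were lower in TS over CS, 31 higher and 33 lower in TBM over CBM, 149 lower in CS over CBM and 223 lower in TS over TBM. With all 4 markers 16 were lower in TS over CS, 30 lower in TBM over CBM, 49 higher in CS over CBM and 43 higher in TS over TBM. The rule after thinning kept only 24 CBM and 28 TBM cells. With it 20 were lower in TS over CS, 55 higher and 165 lower in TBM over CBM, 69 higher in CS over CBM and 158 higher and 193 lower in TS over TBM. Without cells of at least 2 other-lineage markers 5 were higher in TS over CS. That setting left 0 marrow cells, so it gave no other comparison. The same after thinning, added after seeing the data, gave 5 higher in TS over CS, 124 lower in TBM over CBM and 55 higher in TS over TBM. Without the 5% of cells with the most UMIs TBM over CBM had 46 higher and 138 lower. At equal weight per cell 81 were lower in TS over CS, 47 higher in TBM over CBM and 239 lower in TS over TBM. With 10% free RNA subtracted 40 were higher in TS over TBM. At 50 CPM the higher and lower counts were 3 and 16 (TS over CS), 4 and 20 (TBM over CBM), 11 and 25 (CS over CBM) and 9 and 36 (TS over TBM), and at 5 CPM 24 and 157, 84 and 351, 77 and 379 and 106 and 391, since fewer or more genes were tested.

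Of 111 log2 ratios of named genes past 2-fold, 5 turned sign under an alternative, namely Pf4 (1.85, TBM over CBM) and Cd9 (0.13, CS over CBM) with all 4 markers, and Lyz2 (0.14, TS over CS), Pf4 (0.20, TS over CS) and Cxcl2 (0.61, TBM over CBM) with the rule after thinning. Of 129 under 2-fold, 54 turned sign, among them Apoe in CS over CBM (0.19 with all 4 markers) and in TS over TBM (0.88 with the rule after thinning). Median-of-ratios scaling moved the median of all genes from -0.02 to 0.12 in TS over TBM. Apoe, H2-Q7 and Irf1 were past 2-fold in both tumor comparisons, and Hes1, Hemgn and Sptb in both organ comparisons, under every alternative that gave a value. Irf1, Hes1 and Sptb averaged under 20 CPM in the libraries in which they were low. They had to differ once they passed the filter, so for them this is a description. No paired analysis was possible because each group was 1 library and no test was made. The 125 CBM and 78 TBM cells limit every marrow value. With all 4 markers only 43 and 48 of these were left, and with the rule after thinning 24 and 28.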

Other observations

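Genes of erythropoietin and KIT signalling had median log2 ratios between -0.32 and -0.11 over the comparisons of early erythroid progenitors. Of 9 tested members of the list 0 were past 2-fold in any comparison, and in CS over CBM all 9 had a ratio below 1 (median log2 ratio -0.32). Over all tested genes 0.159 to 0.495% were at least 2-fold higher and 0.761 to 1.96% lower, so the count of 0 is near that share. Epor was at 60.5 and 72.2 CPM in CBM and TBM, and at 60.3 and 73.2 CPM in CS and TS. Its ratio with a tumor was 0.28 in spleen on the log2 scale (interval 0.22 to 0.34) and 0.25 in marrow, where the interval of -0.05 to 0.56 included 0.

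Genes of iron uptake, storage and export had medians of 0.07 in TS over CS and 0.20 in TBM over CBM, and of -0.20 in CS over CBM and -0.35 in TS over TBM. In the last, 2 of 15 were at least 2-fold lower, against 1.96% of all tested genes. Genes of glycolysis had medians between 0.10 and 0.20 in the 4 comparisons. No test between groups could be made for any of these values.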
